A study of Mus musculus with 4 samples.

Results

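The Dlx homeobox genes Dlx1 to Dlx6 were read in whole skin of mouse embryos at stage E14.5. All probe sets whose platform gene symbol was one of these 6 genes were taken, which gave 8 probe sets of 45037 on the array, or 6 of 18193 genes named by a probe set, with 1 each for Dlx1, Dlx2, Dlx5 and Dlx6 and 2 each for Dlx3 and Dlx4. The 4 arrays, of 1 embryo each, held skin of 2 control littermates and of 2 mutants. The mutants were KRT14-Cre Ctnnb1(Ex3)fl/+: Cre, expressed from a keratin promoter of basal keratinocytes, deletes from 1 Ctnnb1 allele the exon that marks beta-catenin for breakdown, so that keratinocytes and their descendants make a stabilised beta-catenin while dermal cells are not targeted. The genotype of the controls, the strain and the sex of the embryos are not given in the labels used here, and nothing says whether the littermates came from 1 litter.

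Dlx proteins are transcription factors related to Distal-less, which patterns appendages in Drosophila. In mammals their genes lie in linked pairs, Dlx1 with Dlx2, Dlx3 with Dlx4 and Dlx5 with Dlx6, each pair transcribed convergently and sharing enhancers between and around its genes. Dlx3 is known from the growing hair, in its matrix, shaft and inner sheath, and from the differentiating epidermis. Dlx1 and Dlx2 are best known from forebrain interneurons and the branchial arches, and Dlx5 and Dlx6 from the jaw, the limb bud and bone.

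The median signal of an array, in MAS5 units on a linear scale, lay between 27.7 and 32.0. Across the tested probe sets, which do not count as independent points, the correlation of log2 signals was 0.979 for the pair of controls and 0.981 for the pair of mutants. The labels give epidermis and dermis as the tissue, whereas the scanner settings give epidermis. The dermal collagen Col3a1 read 7229 to 9491 and the basal keratin Krt14 read 934 to 2528, so markers of both layers were present on every array. In such bulk skin a change in the number of cells of a type and a change in RNA per cell cannot be told apart. Spiked-in poly-A RNA read higher in the controls, by 1.05 on the log2 scale over 12 probe sets. On a scale set by these spikes the median log2 difference of all tested probe sets was 0.98, against -0.01 on the scale of the whole array used here, and 99.1% of the calls were rises, against 58.3%.

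All 8 Dlx probe sets read higher in both mutants than in both controls, a pattern shared by 24.1% of all probe sets on the array and 26.6% of those tested. The family was chosen by these mutant and control signals, known from an earlier look at the same data, so they are given as a description, without a test, and nothing is read from the count. Differences are on the scale log2(signal + 7.71), with the model's standard error (SE), and ran from 0.21 to 3.47 with a median of 1.08, against 0.01 for all probe sets. The offset 7.71, the percentile 25 of all signals, shrinks the differences of dim probe sets. Only 4 of the 8 had a mean signal at or above the median over all probe sets, 31.1, and were among the 22519 tested: Dlx2, both Dlx3 probe sets and Dlx5. Dlx2 and Dlx3 reached this filter only through their mutant signals, and no call is given for any member. The 4 probe sets of Dlx1, Dlx4 and Dlx6 were too dim to be tested.

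**Figure D1:**
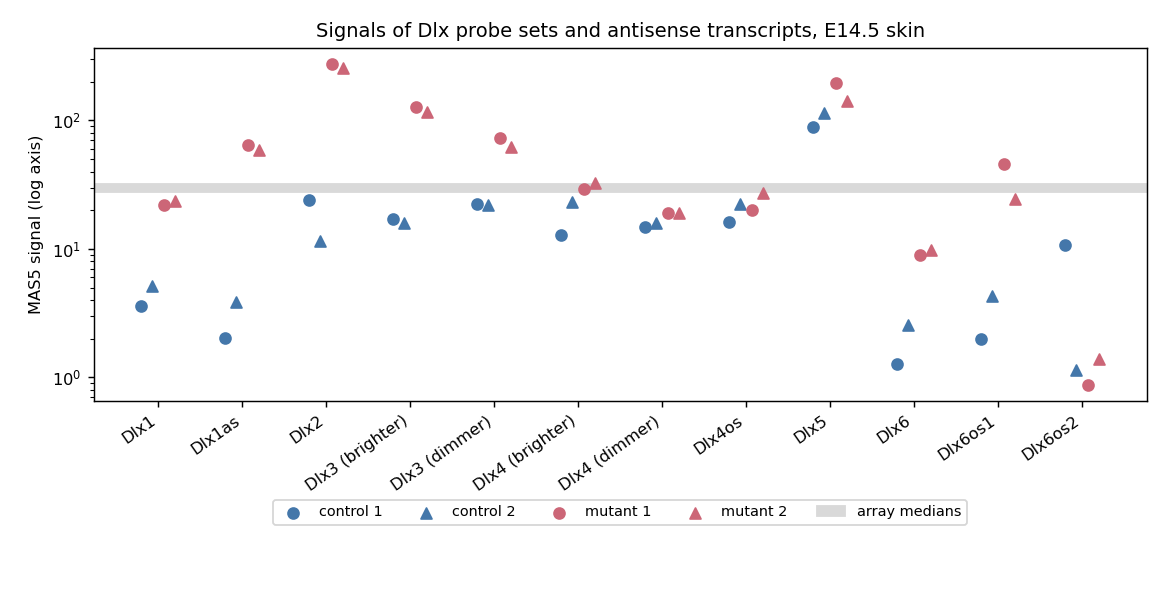
MAS5 signal (log axis) of the 8 Dlx probe sets and of 4 antisense transcripts of their loci on each array; circles are replicate 1, triangles replicate 2, blue controls, red mutants, and the grey band spans the array medians of 27.7 to 32.0. In every Dlx probe set both red symbols lie above both blue ones, with the widest gap for Dlx2 and the narrowest for the dimmer Dlx4 probe set.

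Of the first linked pair, Dlx2 had the widest gap of the family. Its probe set 1448877_at read 24.2 and 11.4 in the controls and 275 and 257 in the mutants. The controls differed 2.12-fold from each other and lay under the median of their arrays, while the mutants agreed closely and lay far above theirs. The lower mutant was 10.6 times the higher control, and the log2 difference was 3.47 (SE 0.27). Dlx1 (1449470_at) read 3.58 and 5.19 in the controls and 21.8 and 23.8 in the mutants, with a log2 difference of 1.34 (SE 0.26). All 4 of its signals lay under the median of their arrays, so its level in mutant skin was still low on this array.

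The antisense transcript Dlx1as, whose gene overlaps Dlx1, was not used in choosing the family and was tested as part of the whole table. It read 2.01 and 3.85 in the controls and 64.7 and 58.7 in the mutants. The groups were far apart and Dlx1as rose, with a log2 fold change of 2.71 (SE 0.25, limma adjusted p = 0.00218). At the threshold used, an adjusted p of 0.05, 7.03% of all tested probe sets passed and 4.10% passed as higher in the mutants. Both control signals were below the offset, on which the fold therefore depends, and the probe set was tested only because of its mutant signals. In the 12 alternatives that tested it, its limma adjusted p was at most 0.00937, reached with no filter. The lowest, 9.03e-20, came with poly-A spike scaling, under which 15717 probe sets passed, and the lowest otherwise was 0.00175. Where its probes lie relative to the overlap with Dlx1 is not known here.

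The promoters of Dlx1 and Dlx2, from 250 bases before to 50 after the RefSeq start of transcription (build GRCm38.p6), are shown because both genes read higher in the mutants. Dlx1 lies at chr2:71529195-71529494 on the plus strand and Dlx2 at chr2:71546705-71547004 on the minus strand. They are set beside the window with the most motif matches among the 6 windows found for the family and its antisense transcripts, a start of the Dlx5/Dlx6 antisense transcript Dlx6os1, at chr6:6869484-6869783 on the minus strand. Capitals mark 2 kinds of motif searched on both strands: the TCF/LEF motif, CTTTG followed by 2 bases that are each A or T, and the homeodomain core TAATT, overlapping matches counting as 1 stretch.
Dlx1: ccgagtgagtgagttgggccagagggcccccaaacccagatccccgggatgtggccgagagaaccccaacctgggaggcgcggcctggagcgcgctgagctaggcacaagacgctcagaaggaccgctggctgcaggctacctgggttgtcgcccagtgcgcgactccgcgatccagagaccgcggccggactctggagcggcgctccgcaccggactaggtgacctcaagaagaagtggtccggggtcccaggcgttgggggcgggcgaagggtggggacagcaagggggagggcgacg
Dlx2: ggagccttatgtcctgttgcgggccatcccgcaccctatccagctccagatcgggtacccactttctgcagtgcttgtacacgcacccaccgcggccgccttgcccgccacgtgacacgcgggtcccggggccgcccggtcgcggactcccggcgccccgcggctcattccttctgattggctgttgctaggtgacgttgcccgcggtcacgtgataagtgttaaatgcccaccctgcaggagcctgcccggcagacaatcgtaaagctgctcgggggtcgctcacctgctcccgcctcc
Dlx6os1: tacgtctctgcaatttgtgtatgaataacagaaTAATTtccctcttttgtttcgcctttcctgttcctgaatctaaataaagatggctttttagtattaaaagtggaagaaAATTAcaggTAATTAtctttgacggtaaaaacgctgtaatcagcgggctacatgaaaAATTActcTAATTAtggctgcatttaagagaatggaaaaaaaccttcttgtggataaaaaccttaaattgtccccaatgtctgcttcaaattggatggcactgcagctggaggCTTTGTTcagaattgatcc
The Dlx1 and Dlx2 windows hold no capitals, that is neither motif. They are rich in G and C, at 69.3% and 66.3%, with 27 and 29 CpG dinucleotides, against a median of 52.7% and 7 CpG over 32851 promoter windows of the same length. The Dlx6os1 window has 35.7% G and C and 5 CpG, with 5 homeodomain stretches and 1 TCF/LEF match, which lies in the transcribed bases after the start. The other Dlx6os1 start, of 35.3% G and C, holds 3 homeodomain stretches and 1 TCF/LEF match. The Dlx6os2 window holds 1 homeodomain stretch and 0 TCF/LEF matches, and the Dlx4os window holds neither motif. Of all windows, 16.9% hold the TCF/LEF motif and 27.0% the homeodomain core. A match is only a string of letters, and enhancers outside these windows were not searched.

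Of the second pair, Dlx3 had 2 probe sets, both designed from the same transcript record. The brighter, 1450475_at, read 17.0 and 16.0 in the controls and 127 and 117 in the mutants, with a log2 difference of 2.42 (SE 0.20). The dimmer, 1422037_at, read 22.2 and 22.0 in the controls and 72.4 and 62.0 in the mutants, with a log2 difference of 1.32 (SE 0.22). Both showed tight groups that did not overlap, control signals under the array medians and mutant signals above them. They gave different sizes, the ratio of group means being 7.39 for one and 3.03 for the other, so the fold of Dlx3 depends on the probe set read.

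Dlx4, best known from the placenta, showed small gaps in both of its probe sets. Its probe set 1420595_at read 12.9 and 23.1 in the controls and 29.5 and 32.8 in the mutants, with a log2 difference of 0.63 (SE 0.30). Here the controls differed 1.79-fold, more than the 1.28-fold step from the higher control to the lower mutant. The dimmer probe set 1443591_at read 14.9 and 15.9 in the controls and 18.9 and 19.0 in the mutants, a log2 difference of 0.21 (SE 0.26) that is smaller than its error. The antisense transcript Dlx4os overlapped between groups, at 16.2 and 22.4 in the controls and 20.2 and 27.0 in the mutants, and was too dim to be tested.

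Of the third pair, Dlx5 alone lay above the median of every array. Its probe set 1449863_a_at read 88.4 and 114 in the controls and 195 and 142 in the mutants. The groups did not overlap, but the lower mutant was only 1.25 times the higher control, and each group had a spread of similar size. The log2 difference was 0.69 (SE 0.20), and it was 0.47 without mutant replicate 1 and 0.91 without mutant replicate 2. Dlx6 (1452507_at) read 1.28 and 2.55 in the controls and 9.05 and 9.79 in the mutants, with a log2 difference of 0.83 (SE 0.22). Its mutant signals ranked above only 27.1% and 28.7% of the probe sets on their arrays, so this is a difference among very dim signals.

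Of the 2 antisense transcripts of this locus, the groups were apart in Dlx6os1 and overlapped in Dlx6os2. Dlx6os1, also known as Evf2, is a noncoding RNA known to act with Dlx proteins at the shared enhancers of Dlx5 and Dlx6 in the mouse forebrain. It read 1.99 and 4.30 in the controls and 46.1 and 24.3 in the mutants, a log2 difference of 1.94 (SE 0.34). Dlx6os2 read 10.8 and 1.13 in the controls and 0.88 and 1.39 in the mutants, a log2 difference of -0.53 (SE 0.36) that rests on 1 control array. Neither reached the filter, so neither was tested. Of the 4 antisense transcripts, then, Dlx1as passed and 3 were not tested.

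**Figure D2:**
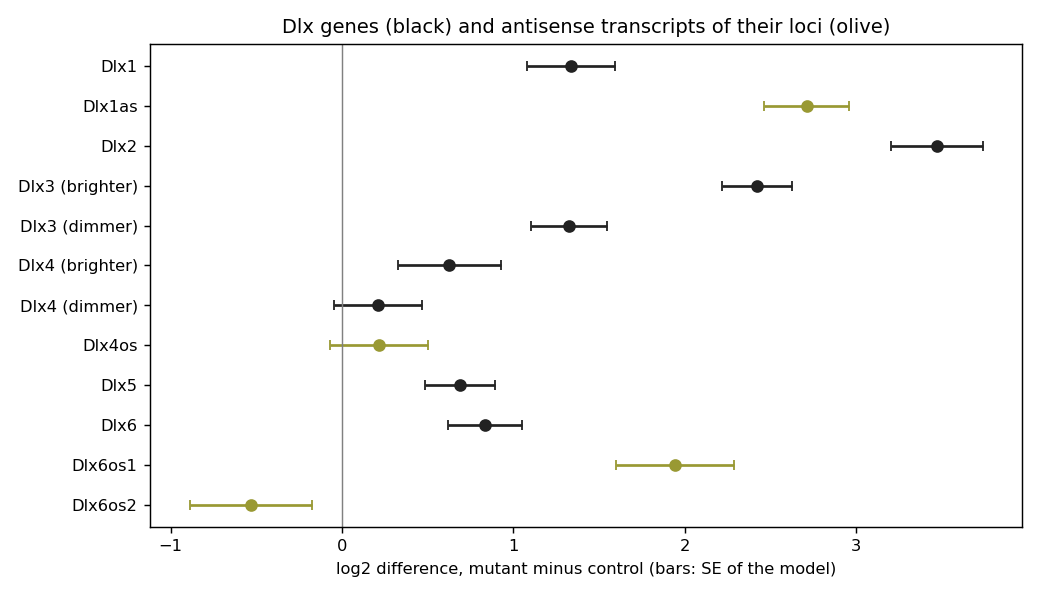
Log2 difference, mutant minus control, of the Dlx probe sets (black) and of the antisense transcripts (olive), with bars of 1 SE from the model. Dlx2 lies farthest to the right at 3.47 and Dlx1as next at 2.71, while Dlx5, Dlx6, both Dlx4 probe sets, Dlx4os and Dlx6os2 lie within 1 of zero.

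To see whether the regions around the pairs moved as well, the 4 nearest named protein-coding genes with a probe set on each side of each pair were read, 24 in all. Of these, 22 were tested: Dync1i1 rose, Itga3 and Pdk1 fell, and the other 19 did not pass, where of 11549 tested genes 8.74% passed, 4.96% as higher and 3.78% as lower in the mutants. The median log2 difference of the tested neighbours was 0.06, against -0.02 for all tested genes. Of the direct neighbours of the pairs, Itga3 beside Dlx3 was the only one that passed. The others, Metap1d and Itga6 of Dlx1/2, Tac4 beside Dlx4, and Sem1 and Sdhaf3 beside Dlx5/6, had log2 differences between -0.23 and 0.10. None of these passed, and Tac4 was not tested.

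The neighbour that rose was Dync1i1, a cytoplasmic dynein chain gene known to carry limb enhancers of Dlx5 and Dlx6 within its exons in the mouse. It read 59.1 and 38.4 in the controls and 210 and 224 in the mutants. The lower mutant was 3.56 times the higher control, and the log2 fold change was 2.02 (SE 0.21, limma adjusted p = 0.00345). The limma adjusted p was at most 0.0111 in 12 alternatives, and its lowest value, 2.25e-13, came with poly-A spike scaling. Between Dync1i1 and Dlx6 lie Slc25a13 and Sem1, whose log2 differences did not pass: 0.26 for the first (limma adjusted p = 0.339) and 0.03 for the second (limma adjusted p = 0.905).

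The neighbours that fell were Itga3 beside Dlx3 and Pdk1 near Dlx2. Itga3, the alpha chain of an epidermal laminin receptor, read 118 and 181 in the controls and 58.2 and 71.9 in the mutants (log2 fold change -1.09, SE 0.23, limma adjusted p = 0.0420). Its call ended when control replicate 2, mutant replicate 1 or mutant replicate 2 was left out, with limma adjusted p-values of 0.0986, 0.124 and 0.0550. It ended too with no filter (0.0884), with no variance trend (0.0642) and on the scale of the poly-A spikes, where the log2 difference was -0.13 (limma adjusted p = 0.733). Pdk1, a kinase that restrains pyruvate dehydrogenase, read 748 and 626 in the controls and 441 and 380 in the mutants (log2 fold change -0.73, SE 0.14, limma adjusted p = 0.0276), but 0.30 on the scale of the poly-A spikes. Its call ended when mutant replicate 2 was left out, at a log2 difference of -0.63. It ended too with no filter (limma adjusted p = 0.0607) and with no variance trend (0.0679). Dimmer tested probe sets of Pdk1 had log2 differences of -0.67 and -0.66 and did not pass (limma adjusted p = 0.136 and 0.0997).

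**Figure D3:**
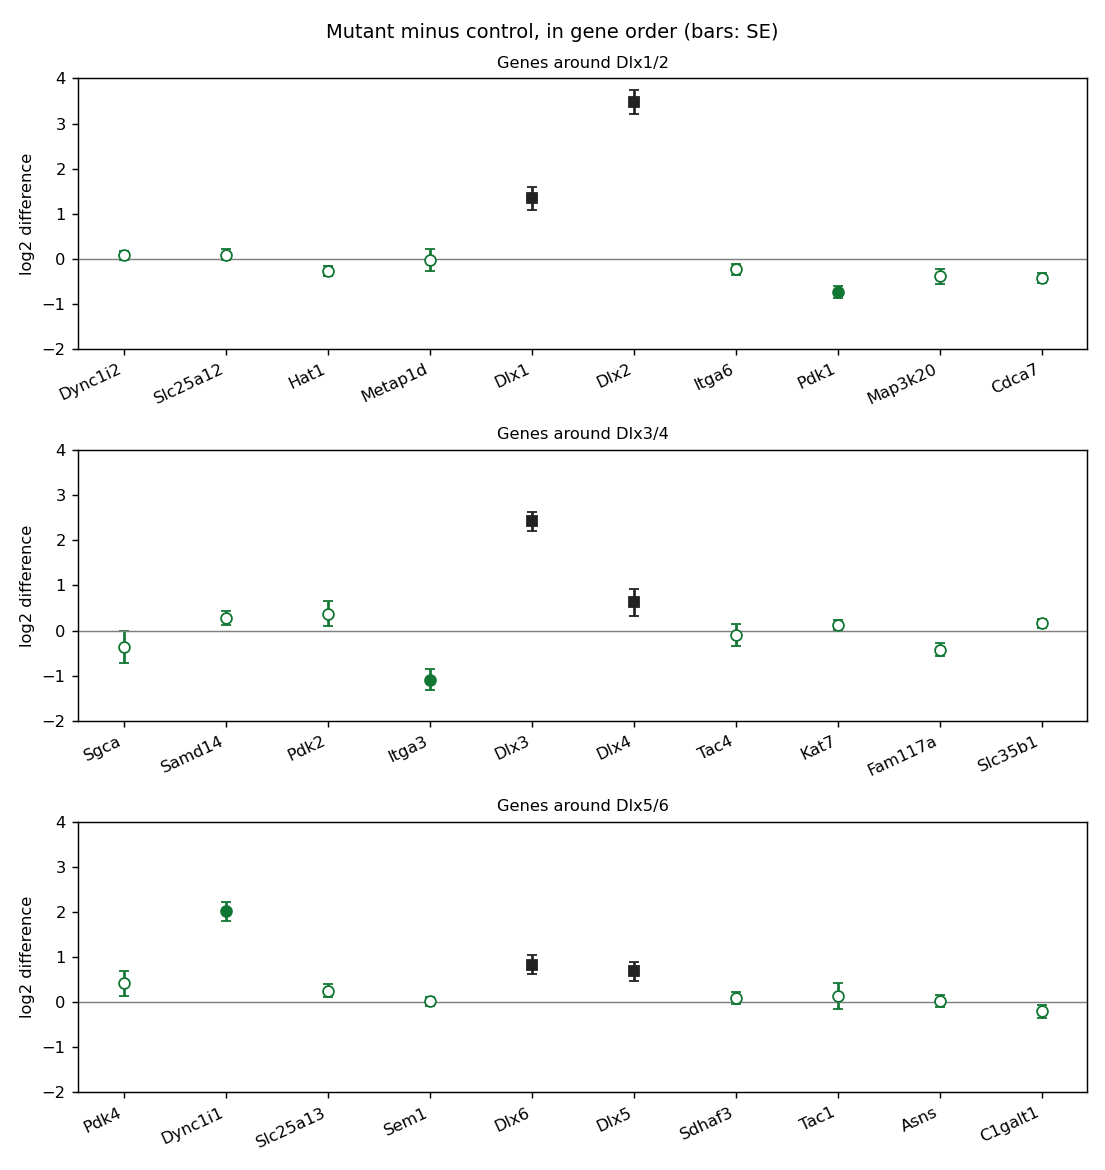
Log2 difference, mutant minus control, with bars of 1 SE, of the 4 nearest named coding genes on each side of each linked pair, in gene order; squares are Dlx genes (brighter probe set where there are 2), filled circles neighbours that passed, and open circles neighbours that did not pass or, for Sgca and Tac4, were not tested. Most neighbours lie near zero beside raised squares, with Dync1i1 at 2.02 and Itga3 at -1.09 farthest from it.

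Of 13 listed genes known to act upstream of Dlx genes, 10 were measured and 9 tested. Shh, Bmp2 and Bmp4 rose and the other 6 did not pass, where 4.96% of all tested genes passed as higher. The median log2 difference of those tested was 0.19. Shh, the hedgehog ligand of the placode, read 83.2 and 92.2 in the controls and 704 and 846 in the mutants (log2 fold change 3.03, SE 0.14, limma adjusted p = 0.000171). Bmp2 and Bmp4, ligands known to induce Dlx genes in epithelium, rose by 2.10 (SE 0.28, limma adjusted p = 0.00802) and 0.79 (SE 0.12, limma adjusted p = 0.0129). The call of Bmp4 ended when mutant replicate 2 was left out (limma adjusted p = 0.0589). Trp63, the p63 factor of stratified epithelium that controls Dlx3 and Dlx5/6, read 712 and 962 in the controls and 432 and 603 in the mutants. Its groups did not overlap, and its log2 difference of -0.69 did not pass (limma adjusted p = 0.100). Dimmer tested probe sets of Trp63 had smaller log2 differences, -0.24, -0.20 and -0.22, and did not pass (limma adjusted p = 0.468, 0.577 and 0.493).

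Of 12 listed genes reported as targets of Dlx proteins, 9 were measured and 5 tested. Of these 4 rose and 1 fell, where of all tested genes 4.96% passed as higher and 3.78% as lower. The median log2 difference was 2.35 over the 5 tested and 0.14 over the 9 measured. Several were tested only because of 1 group's signals, so the filter favours changes in this count. Hoxc13, a hair matrix and shaft factor that Dlx3 regulates, read 2.48 and 12.9 in the controls and 150 and 169 in the mutants (log2 fold change 3.53, SE 0.34, limma adjusted p = 0.00261). Gata3, another reported Dlx3 target and a factor of the inner root sheath and epidermis, fell. It read 163 and 228 in the controls and 28.7 and 22.3 in the mutants (log2 fold change -2.60, SE 0.22, limma adjusted p = 0.00168).

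The other targets that rose belong to bone and to the jaw. Sp7, the osteoblast factor downstream of Dlx5, read 36.2 and 33.6 in the controls and 235 and 185 in the mutants (log2 fold change 2.35, SE 0.18, limma adjusted p = 0.00129). Ibsp, a bone matrix protein, read 2.12 and 1.58 in the controls and 741 and 321 in the mutants, and Hand2, a Dlx5/6 target in the lower jaw, 41.3 and 17.7 against 183 and 158. Both rose (limma adjusted p = 0.000687 and 0.00891). The targets of the forebrain were dim in both groups. Gad1 and Gad2, the GABA synthesis enzymes of interneurons, read at most 8.99 and 18.5 on any array and were not tested.

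Of 5 genes whose products bind Dlx proteins, 3 rose and 2 did not pass (median log2 difference 2.02), where 4.96% of all tested genes passed as higher. The homeodomain proteins Msx1 and Msx2, which dimerise with Dlx proteins, rose by 3.49 (SE 0.17, limma adjusted p = 0.000220) and 3.97 (SE 0.17, limma adjusted p = 0.000121). Msx2 read 18.2 and 23.5 in the controls and 446 and 428 in the mutants. Both had control signals under 31.1 and were tested only through their mutant signals. Smad6, a BMP feedback inhibitor, rose by 2.02 (SE 0.15, limma adjusted p = 0.00109). Maged1, also called Dlxin-1, read 2462 and 2423 in the controls and 2939 and 2723 in the mutants and did not pass (log2 difference 0.21, limma adjusted p = 0.276).

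Among the wider NK-like homeobox genes, to which Dlx and Msx belong, most were dim. Of 40 listed relatives, Msx1 and Msx2 included, 36 were measured, 28 were not tested, 3 rose, 1 fell and 4 did not pass. The median log2 difference was 0.15 over the 8 tested and 0.11 over the 36. Besides Msx1 and Msx2, Hlx rose by 0.94 (SE 0.21, limma adjusted p = 0.0484) and Emx2 fell by 0.96 (SE 0.21, limma adjusted p = 0.0467). The call of Hlx ended whichever array was left out (limma adjusted p = 0.0687 to 0.249). That of Emx2 ended when control replicate 1, mutant replicate 1 or mutant replicate 2 was left out, with limma adjusted p-values of 0.0956, 0.130 and 0.137. It ended too with no filter (0.0996), with no variance trend (0.0531) and on the scale of the poly-A spikes, where the log2 difference was -0.02 (limma adjusted p = 0.949). In 26 of the 36 no array reached the filter of 31.1, and whether Dlx genes differ from their relatives was not tested.

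**Figure D4:**
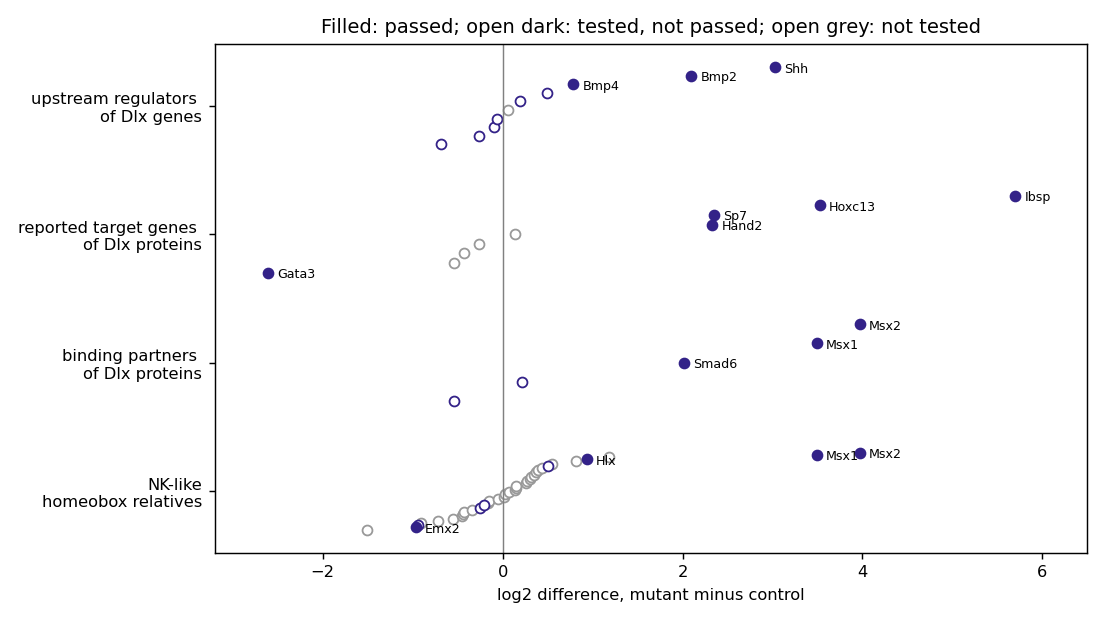
Log2 difference, mutant minus control, of each measured gene in 4 lists around the Dlx family; filled points passed, open dark points were tested and did not pass, and open grey points were too dim to be tested. Ibsp at 5.70 and Gata3 at -2.60 mark the ends of the target list, and most NK-like relatives cluster around zero in grey.

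Markers of several cell types in which Dlx genes are known moved between the groups, and those of others mostly did not pass. For the counts below, 4.96% of all tested genes passed as higher and 3.78% as lower in the mutants. Of 12 hair matrix and shaft genes 11 were measured and all 11 rose, with summed signals of 117 and 121 in the controls and 13249 and 10159 in the mutants. Of 8 inner root sheath genes 7 were tested: Gata3 fell and the other 6 rose, among them the keratin Krt73 by 5.36 and trichohyalin, Tchh, by 3.97 on the log2 scale. Of 10 bone genes 6 were measured, 5 rose and 1 was not tested, with sums of 108 and 76.4 against 1342 and 681. The bone count was 2 without mutant replicate 1, 3 without control replicate 2, 2 with no filter and 3 with no variance trend. All 12 cartilage genes were tested and 1, Matn4, passed, with sums of 268 and 222 against 11673 and 580. The cartilage count rested on single arrays, at 12 without mutant replicate 2, 3 without mutant replicate 1 and 0 without either control. Of 8 suprabasal epidermal genes 7 were tested and 6 fell, with sums of 11411 and 16817 against 1381 and 1814. Of 8 neuron and interneuron genes 1, Tubb3, rose, 1 did not pass and 6 were not tested, and without control replicate 1 the count passing was 2. All measured hair genes, and most tested sheath, bone and cartilage genes, had control signals under 31.1 and were tested only through their mutant signals. The filter therefore favours rises in these counts. In the other marker lists most tested genes did not pass. Of 3 apical ectodermal ridge genes tested 1 rose, and the 1 otic and olfactory placode gene tested did not pass. Of 8 basal epidermal genes 2 fell and 6 did not pass, and of 9 dermal fibroblast genes 2 fell and 7 did not pass. The part of any of these cell types in the Dlx signals was not tested.

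The cartilage signal lay almost wholly in mutant replicate 1, where the 12 genes stood above mutant replicate 2 with a median log2 difference of 4.13. Over the bone genes this difference was 0.80, and over the hair genes 0.28. For the Dlx probe sets it lay between -0.12 and 0.44, the highest being that of Dlx5. Dlx1as had a difference of 0.13 and Dlx6os1 of 0.75. Between the controls, replicate 1 minus replicate 2, Dlx5 differed by -0.34. Without mutant replicate 1 the log2 difference of Dlx2 was 3.42, that of the brighter Dlx3 probe set 2.37, that of Dlx1 1.38 and that of Dlx5 0.47. With all arrays these were 3.47, 2.42, 1.34 and 0.69. The cartilage sum was above the controls in mutant replicate 2 too, at 580 against 268 and 222, so leaving out mutant replicate 1 does not remove cartilage signal. What cartilage cells add to the Dlx signals was not tested.

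**Figure D5:**
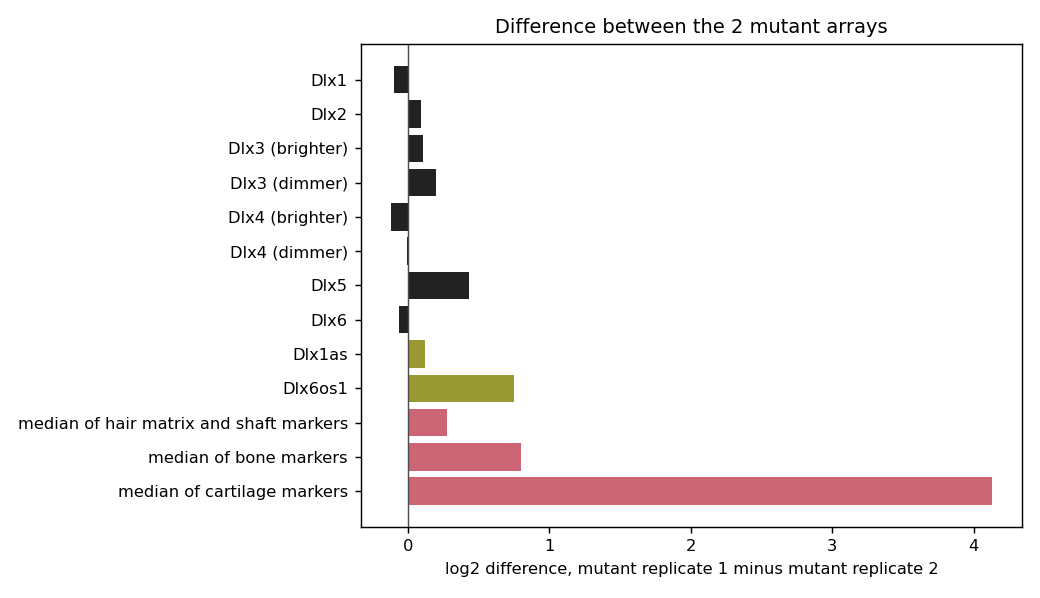
Log2 difference between mutant replicate 1 and mutant replicate 2 for each Dlx probe set (black), for Dlx1as and Dlx6os1 (olive) and as a median over the hair, bone and cartilage markers (red). The cartilage median of 4.13 lies farthest from zero, and among Dlx genes Dlx5 stands out at 0.44.

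The genes whose profiles over the 4 arrays lay closest to those of the Dlx genes were found by the root mean square distance between log2 profiles centred on their means, among 11546 tested genes. Closest to Dlx2 were Hephl1, Mab21l1, Crym and Pinlyp, at distances of 0.09 to 0.19, and only 5 genes lay within 0.2. Closest to Dlx3 were C1qtnf3, Irs4, Sp7 and Unc5c, at 0.06 to 0.12, with 17 genes within 0.2. Closest to Dlx5 were Prtg, Ebi3, Ier2 and Fam214a, at 0.03 to 0.09, but 251 genes lay as near as 0.2, so its shallow profile singles out few. With 4 arrays this likeness is mostly the size of the mutant and control difference and is given as a description.

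The authors' deposited table of changed probe sets, made from GCRMA values with a Welch t-test and a 2-fold filter, holds 170 probe sets in the copy used here, which may lack rows. None of the 8 Dlx probe sets is among those 170, from which nothing is read about whether the authors listed them.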

How the data were processed

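Total RNA of E14.5 skin of 2 control and 2 mutant embryos was labelled in 1 cycle and hybridised to Affymetrix mouse arrays. The deposited values are linear signal intensity values per probe set, which the authors obtained from MAS5 in GCOS, per the labels and with no version given; the scaling target is not given in the sources used here. Per the file headers, the authors' second table gives a fold ratio of mutant over control from GCRMA values.

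Gene names came from the platform table, with symbols updated by gene identifier (GRCm38.p6, names and gene order only): of 45037 probe sets besides 64 array controls, 34945 had 1 gene, 932 several and 9160 none here. Values were put on log2(signal + 7.71). Probe sets with a mean signal of at least 31.1, the median, were tested (22519) in R 4.3.3 with limma 3.58.1 (variance trend, two-sided, Benjamini-Hochberg over all tested probe sets, threshold 0.05). SEs of Dlx probe sets come from the same model fitted to all 45037. A gene was represented by its probe set of highest mean signal. Nothing says that replicates are more than separate embryos of 1 age, and their number limits the precision; with 2 arrays a group the smallest two-sided p of an exact permutation test is 0.333. The model was run on simulated data with normal noise whose spread followed a smooth trend with signal. That is simpler than real arrays, and nothing is read from it. Named were all Dlx probe sets, the called and adjacent neighbours, up to 4 called genes per list and 4 nearest profiles per pair. The called target Hand2 was named in addition. Other genes are named as dim or uncalled examples, and these and Hand2 were chosen after their values were seen. Members and lists were chosen with earlier results of these data known. Samples shared replicate numbers, but the labels do not pair them. Alternatives changed the offset, scaling, filter, variance model, probe set, arrays and block. RefSeq promoters were matched by symbol for Dlx1 and Dlx2 among the 6 genes.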

Additional observations from a re-analysis of the deposited data

How the results depend on the processing

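Under 9 alternatives each, none of the 72 values of the Dlx probe sets changed sign, but most could not have. Both mutants read above both controls in every Dlx probe set. A changed offset, a left-out array or the replicate block therefore kept the sign, and spike scaling raised mutants against controls. Nothing is read from this count. The median over the Dlx probe sets, 1.08, was 1.78 with poly-A spike scaling and stayed between 0.99 and 1.12 when 1 array was left out. It became 1.55 with an offset of 1.93 and 0.60 with an offset of 30.8. With these offsets all Dlx probe sets but those of Dlx5 and the brighter of Dlx4 moved by more than the replicate spread, Dlx2 to 3.84 and 2.62 and Dlx6 to 1.58 and 0.30. The count of called probe sets, 1583, was 15717 with spike scaling, 880 with no filter, 828 with the filter at percentile 75 and 982 to 2171 without 1 array. With the replicate number as a block it was 2443. Deviations of same-numbered arrays correlated with r = 0.155, and nothing in the labels pairs them.

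Of the called genes, the neighbours numbered 3, and 14 with spike scaling, 1 with no filter, with the filter at percentile 75 or with no variance trend, and 1 to 4 without 1 array. Called regulators numbered 3, and 7 with spike scaling and 5 with the replicate block. Called NK-like relatives numbered 4, and 2 with no filter or the filter at percentile 75 and 2 to 3 without 1 array. With the filter at percentile 75, 1 reported target and 0 antisense transcripts were left, since fewer genes were tested. Pdk1 turned to 0.30 with spike scaling. The cause of the other changes was not tested.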
